A study of Mus musculus with 10 samples.

Results

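The mRNAs examined here belong to 10 genes of the integrated stress response, Atf4, Atf5, Ddit3, Ppp1r15a, Ppp1r15b, Ifrd1, Slc35a4, Trib3, Chac1 and Sesn2. They were followed by RNA sequencing (RNAseq) and ribosome footprinting (RF) in mouse cortical cultures depolarized with KCl. The genes were selected by name, with the KCl values of these libraries already known, so their differences between KCl and untreated cultures are given as a description and without p-values. All transcripts annotated to them were taken, which gave 11 of the 22534 transcripts counted and 9 of the 10 genes. No counts for Ppp1r15a were analysed here. A transcript counted as measured when RNAseq and CDS RF were both at or over 10 RPKM (reads scaled to the length of the counted sequence and to the total of the library) within 1 culture, and this for 2 or more cultures. Of the 11 transcripts, 6 from 5 genes were measured (Atf4, Atf5 with 2 transcripts, Ddit3, Ppp1r15b and Ifrd1), among 7258 measured transcripts of 4365 genes.

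Primary cultures came from cortices of P0 FVB mice and were grown for 7 days. Untreated cultures 1, 2 and 3 were compared with cultures 4 and 5, which had received 55 mM KCl for 3 h, and all 5 were exposed to cycloheximide, an inhibitor of translation elongation, at 100 µg/ml for 7 min. RNAseq and RF libraries were made from every culture. A further KCl replicate is described in the study's methods as removed for its low library size, so the KCl group has 2 cultures, and an exact permutation of 3 cultures against 2 cannot give a p below 0.1. The labels say no more of the cultures than their treatment and number, so the spread between them may be partly technical.

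The RNAseq libraries held 3056286 to 3629959 counted reads and the RF libraries 1463654 to 7719915. RF culture 3 was the smallest library and had the largest share of 5′UTR footprints, 8.65% of its 5′UTR and CDS footprints against 6.08% to 7.59% in the other 4. The cultures mix neurons and glia. Summed RNAseq levels in CPM (reads scaled to library size by TMM, a normalization in edgeR) of 5 listed neuronal markers were 452 to 648 in untreated and 559 to 567 in KCl cultures. Those of 5 astrocyte markers, Gfap among them, were higher, at 10056 to 11356 in untreated and 8599 to 9139 in KCl cultures, and did not overlap between the groups. The sums of 5 oligodendrocyte lineage markers (1131 to 1300 against 1093 to 1099) and of 4 endothelial and fibroblast markers (529 to 639 against 447 to 511) were also lower with KCl without overlap, while 4 microglial markers overlapped (110 to 135 against 82.2 to 114). These sums are carried by the abundant markers and not every marker was lower. Gfap, Aldh1l1, Cspg4 and Dcn overlapped between the groups. So did Mbp (729 to 854 against 714 to 731), Aldoc (1071 to 1230 against 1221 to 1379) and Olig2 (129.6 to 133.3 against 131.2 to 158 CPM). The endothelial marker Pecam1 went the other way at low levels, with 0 to 0.818 CPM in untreated and 1.23 to 1.83 CPM in KCl cultures. The neuronal marker Map2 was not among the transcripts counted. In such bulk samples fewer cells of a type and less RNA per cell cannot be told apart, and the part of these marker differences in the results below was not tested. Fos, a gene induced by depolarization, had 31.5 to 42.9 CPM in untreated and 107 to 118 CPM in KCl cultures.

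The integrated stress response is set off by kinases that phosphorylate the initiation factor eIF2. Phosphorylation lowers the supply of the complex that brings the initiator tRNA to the ribosome, and most translation falls, while a small group of mRNAs is translated more. Those mRNAs carry upstream open reading frames (uORFs), short reading frames that begin at an AUG in the 5′UTR. In Atf4 and Atf5 the last uORF runs past the start codon of the CDS. Ribosomes that resume scanning after the preceding short uORF miss that last uORF when eIF2 is limiting. In Ddit3 the uORF encodes a peptide that stalls elongating ribosomes and is bypassed more often under stress. ATF4 and CHOP, the protein of Ddit3, then switch on further genes, among them Trib3, Chac1 and Sesn2.

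The windows around the start codons are printed because they show where the uORFs and the CDS begin, the regions to which the footprint counts refer. Each holds 27 bases of the mature mRNA from GRCm38 with the GENCODE annotation, 5′ to 3′, and the capitals mark the start codon. Upstream AUGs are numbered from the 5′ end of the transcript. Where a window crosses an exon junction, both pieces are given in the order of the mRNA.
Atf4 upstream AUG 1, plus strand, chr15:80255291-80255317: cacttttctctcATGgggcctttagga
Atf4 upstream AUG 2, plus strand, chr15:80255570-80255596: cttgcggccaccATGgcgtattagagg
Atf4 upstream AUG 3, plus strand, chr15:80255669-80255685 and chr15:80256207-80256216: ccggcctaagccATGgcgctcttcacg
Atf4 CDS start, plus strand, chr15:80256287-80256313: aagccccacaacATGaccgagatgagc
Atf5 upstream AUG 1, minus strand, chr7:44816523-44816549: tccgcccgcgcaATGgctctgtagccg
Atf5 upstream AUG 2, minus strand, chr7:44816402-44816418 and chr7:44815273-44815282: cttttcgccgccATGgagtcctccacc
Atf5 CDS start, minus strand, chr7:44815152-44815178: tgtgtcacagccATGtcactcctggcg
Ddit3 upstream AUG 1, plus strand, chr10:127290817-127290843: gtcgattatatcATGttgaagatgagc
Ddit3 upstream AUG 2, plus strand, chr10:127290826-127290852: atcatgttgaagATGagcgggtggcag
Ddit3 CDS start, plus strand, chr10:127295329-127295355: ccacgtgcagtcATGgcagctgagtcc
Ppp1r15b upstream AUG 3, plus strand, chr1:133131505-133131531: tccctagccgggATGgacctaaccgcg
Ifrd1 upstream AUG 1, minus strand, chr12:40223144-40223170: ctagagagaaacATGtatcgtttccgc
Sesn2 upstream AUG 1, minus strand, chr4:132510439-132510465: tccgtggtggggATGgtgaggagcgcc

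The Atf4 transcript (ENSMUST00000109605, chr15:80255184-80257541, plus strand, 3 exons) has a 5′UTR of 594 nt, a CDS of 1050 nt and a 3′UTR of 81 nt. Its upstream AUG 1 opens a frame of 36 codons that closes 364 nt before the CDS. Upstream AUG 2, 196 nt before the CDS, opens a frame of 3 codons, and upstream AUG 3, 97 nt before it, opens a frame of 59 codons that runs 83 nt into the CDS. The Atf5 transcript with more RNAseq reads is ENSMUST00000047356 (chr7:44812256-44816658, minus strand, 3 exons, 5′UTR 373 nt, CDS 852 nt, 3′UTR 591 nt). Its 2 upstream AUGs have the layout of Atf4 upstream AUGs 2 and 3. The first opens a frame of 3 codons 252 nt before the CDS. The second opens a frame of 58 codons that begins 121 nt before the CDS and runs 56 nt into it. The other Atf5 transcript (ENSMUST00000107893, chr7:44812257-44815658, 5′UTR 293 nt) shares the CDS and has 6 upstream AUGs, of which the last 2 open frames that run into the CDS. Footprints on the overlapping stretches were counted with the CDS, so the CDS values of Atf4 and Atf5 hold some uORF footprints.

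Ddit3 (ENSMUST00000026475, chr10:127290774-127296288, plus strand, 4 exons, 5′UTR 186 nt, CDS 507 nt, 3′UTR 197 nt) has 2 upstream AUGs in the same frame, which give uORFs of 34 and 31 codons with a shared stop 26 nt before the CDS. Ppp1r15b (ENSMUST00000052529, chr1:133131143-133139783, plus strand, 2 exons, 5′UTR 604 nt, CDS 2094 nt, 3′UTR 2896 nt) has uORFs of 2, 8 and 51 codons, the last of which closes 74 nt before the CDS. Ifrd1 (ENSMUST00000001672, chr12:40201567-40223189, minus strand, 12 exons, 5′UTR 233 nt, CDS 1350 nt, 3′UTR 1795 nt) has 1 uORF of 52 codons that closes 43 nt before the CDS. Sesn2 (ENSMUST00000030724, chr4:132492032-132510501, minus strand, 10 exons, 5′UTR 348 nt, CDS 1443 nt, 3′UTR 1684 nt) has 1 uORF of 22 codons. Both listed Slc35a4 transcripts lie on chromosome 18 (5′UTRs of 722 and 627 nt, CDS 975 nt) and have 12 and 11 upstream AUGs, the first of which opens a frame of 103 codons, known to encode a small protein of its own. No upstream AUG was found in Trib3 (ENSMUST00000040312, chr2:152337422-152344032, 5′UTR 176 nt) or Chac1 (ENSMUST00000028780, chr2:119351229-119354381, 5′UTR 174 nt). At least 1 upstream AUG was found in 7 of the 9 genes and in 47.5% of 4348 genes with a measured transcript, a description only, since the genes were chosen as uORF genes. At least 3 were found in 15.7% of those genes, at least 11 in 0.759%, and 15% had an upstream frame that ran into the CDS.

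**Figure D1:**
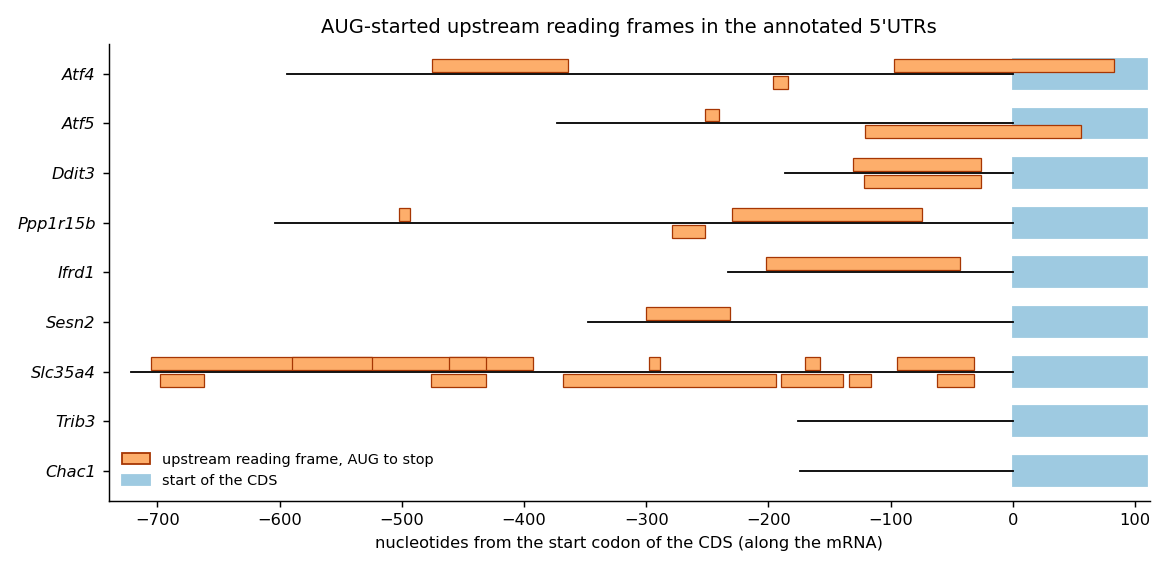
Upstream reading frames of the 9 genes, drawn to scale along the spliced mRNA in nucleotides from the CDS start (x axis, 0 is the first base of the CDS). Black lines are the 5′UTRs, orange boxes run from an upstream AUG to its stop (2 offsets per gene keep most neighbors apart) and blue boxes are the first 110 nt of the CDS. Frames of Atf4 and Atf5 cross into the CDS, those of the other genes close before it, and Trib3 and Chac1 have none.

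Before depolarization, footprints lay mostly on the 5′UTR in 4 of these genes, Atf4, Atf5, Ddit3 and Slc35a4. In Atf4 the 5′UTR held 290, 230 and 39 footprints and the CDS 100, 71 and 13 in untreated cultures 1, 2 and 3. In Ddit3 these were 58, 63 and 15 on the 5′UTR against 7, 13 and 5 on the CDS. Every untreated culture had more footprints on the 5′UTR than on the CDS in these 2 genes and in the first Atf5 transcript (322, 170 and 36 against 74, 40 and 23) and Slc35a4 (210, 148 and 42 against 10, 2 and 2). The second Atf5 transcript had 102, 60 and 22 on the 5′UTR, so its culture 3 lay below the CDS count. Per nucleotide and pooled over the untreated cultures, 5′UTR density was 5.37 times CDS density in Atf4, 8.80 and 3.91 times in the 2 Atf5 transcripts, 14.8 times in Ddit3 and 38.6 times in Slc35a4. Over 10621 transcripts with at least 10 footprints in the 5′UTR the median was 0.603 and 27.5% were over 1, and 97.9% of them lay below Atf4, 98.7% and 96.8% below the Atf5 transcripts, 99.2% below Ddit3 and 99.6% below Slc35a4. Sesn2, with 20 untreated 5′UTR footprints against 197 on the CDS, stood at 0.421, above 33.7% of those transcripts. In Ppp1r15b and Ifrd1 no read of either assay was counted on the 5′UTR in any of the 10 libraries, so that region gave no value for these 2 genes.

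Translation efficiency (TE) was taken as CDS footprint RPKM over RNAseq RPKM of all regions, and was low for Atf4 and Ddit3. In untreated cultures 1, 2 and 3 it was 0.128, 0.122 and 0.0854 for Atf4, 0.154, 0.0896 and 0.222 for Atf5, and 0.106, 0.165 and 0.436 for Ddit3. The median over measured transcripts was 1.69, and 0.1%, 0.2% and 0.6% of them had a lower untreated mean than Atf4, Atf5 and Ddit3. The Atf5 value turned on the denominator, since most of its RNAseq reads lay on the 3′UTR. With RNAseq reads of the CDS alone (21, 22 and 16 reads) its TE was 1.49, 0.896 and 3.00, and 41.1% of 7197 measured transcripts lay below its mean, beside a median of 2.14. On that scale Atf4 stood at 0.0860, 0.0839 and 0.0570, Ddit3 at 0.0870, 0.133 and 0.580, and 0.3% lay below Ddit3. Ppp1r15b, at 1.95, 1.90 and 1.82, lay above 56.3% of measured transcripts and Ifrd1, at 1.21, 1.13 and 0.871, above 23.9%, or above 2.7% on RNAseq reads of the CDS alone. Slc35a4, which fell short of the RPKM minimum on the CDS, had TE of 0.0446, 0.00816 and 0.0484, whereas Sesn2, also below the minimum, had 2.62, 2.01 and 2.92.

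**Figure D2:**
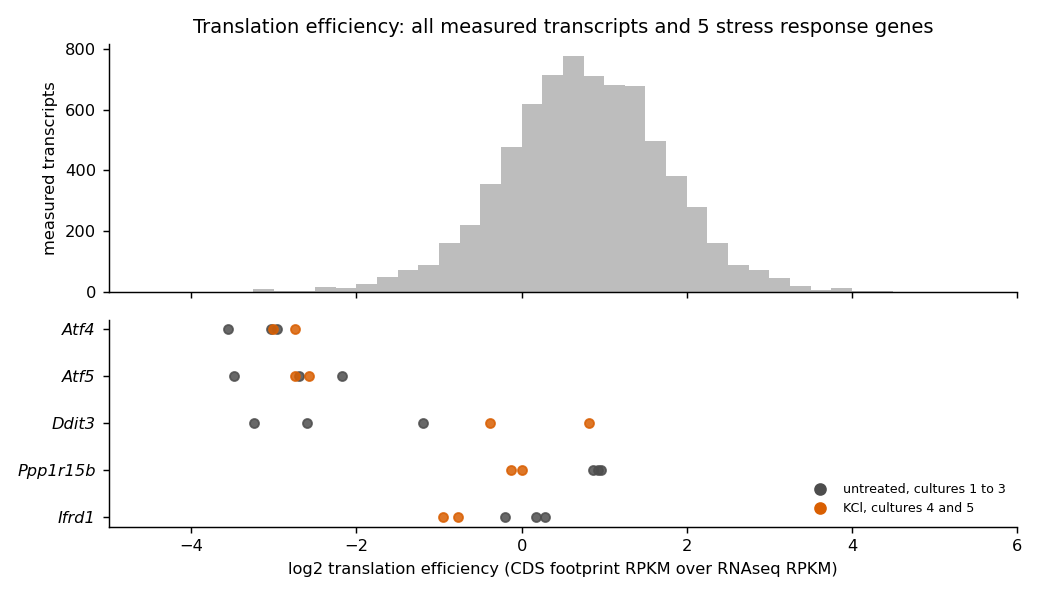
Translation efficiency on a log2 scale (x axis). RNAseq is counted over all regions. The upper panel counts measured transcripts by their untreated mean in bins of 0.25, and the lower panel shows each culture for 5 genes (gray, untreated cultures 1 to 3; orange, KCl cultures 4 and 5). On this scale Atf4 and Atf5 stay in the low tail in all 5 cultures, which for Atf5 does not hold with RNAseq reads of the CDS alone, Ddit3 is in the low tail when untreated and higher in both KCl cultures, and Ppp1r15b and Ifrd1 are lower in both KCl cultures.

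With KCl, RNAseq levels of Atf4, Atf5, Ppp1r15b and Ifrd1 were higher, 4 of the 5 measured genes, and CDS footprints were higher in Atf4, Ddit3, Ppp1r15b and Ifrd1. These calls rest on an adjusted p under 0.05 in edgeR's quasi-likelihood test across all 7258 transcripts. In RNAseq the same rule called 17.9% of transcripts higher and 15.1% lower. In CDS RF the shares were 20.9% higher and 20.1% lower. TE was called higher in Ddit3 and lower in Ppp1r15b and Ifrd1, against 1.53% higher and 4.26% lower of all transcripts. Ddit3 passed the RPKM minimum in 0 untreated and 2 KCl cultures, so it entered the fit only through the group in which it was high. Its calls cannot be set against these shares, and the medians that follow include it. The median log2 fold change over the 5 genes was 1.79 in RNAseq and 1.34 in CDS RF, beside −0.00 and −0.01 over all transcripts. With library totals as the only scaling, 1097 of 2580 RNAseq calls and 1167 of 3107 CDS RF calls over all transcripts were higher, where 1298 of 2393 and 1515 of 2974 were higher with TMM, and the direction of no called gene of this group turned. Fold changes below are given on the log2 scale with an approximate standard error (SE), for KCl minus untreated. Each assay was scaled on its own, so they are relative to the other transcripts. A change in translation shared by all mRNAs would not show in footprints or TE.

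**Figure D3:**
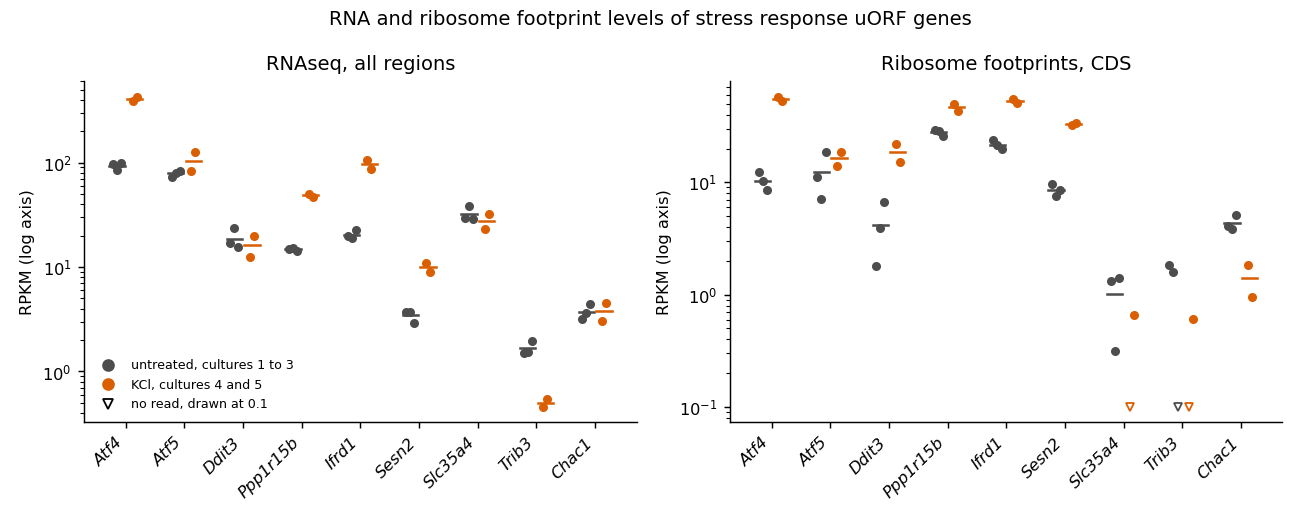
RPKM per culture on log axes for RNAseq over all regions (left) and CDS footprints (right) in 9 genes. Points are cultures (gray, untreated 1 to 3; orange, KCl 4 and 5), bars are group means where every culture had a read, and open triangles at 0.1 mark cultures without a read. The KCl cultures stand clear above the untreated ones in both panels for Atf4, Ppp1r15b, Ifrd1 and Sesn2, and for Ddit3 only in the footprints. They stand clear below them, on few reads, for Trib3 in RNAseq and for Chac1 in the footprints.

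Atf4 encodes the transcription factor at the center of the response. Its RNAseq level was 211, 184 and 214 CPM in untreated cultures 1, 2 and 3 and 890 and 985 CPM in KCl cultures 4 and 5, a log2 fold change of 2.21 (SE 0.13). CDS footprints were 17.3, 14.4 and 12.2 CPM in untreated and 87.1 and 81.2 CPM in KCl cultures, for a log2 fold change of 2.44 (SE 0.18). Both KCl cultures were more than 4 times every untreated culture in each assay. Footprints on its 5′UTR, in CPM of all 5′UTR footprints, went the same way, from 796, 871 and 432 to 3027 and 2737, a log2 fold change of 2.00 (SE 0.24) that was called higher. TE in the KCl cultures was 0.150 and 0.125, one above and one within the untreated range of 0.0854 to 0.128, and its log2 fold change of 0.22 (SE 0.22) was not called. Atf4 RNA, 5′UTR footprints and CDS footprints thus all rose. Its mRNA in RPKM went from 93.3 ± 7.68 (SD, n = 3) to 408 ± 29.2 (SD, n = 2) with CDS footprints at 10.4 ± 1.94 (SD, n = 3) and 55.7 ± 3.27 (SD, n = 2).

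Atf5, a relative of ATF4 regulated through the same uORF layout, moved less. RNAseq was 168, 183 and 189 CPM in untreated and 199 and 304 CPM in KCl cultures, with a log2 fold change of 0.49 (SE 0.15). The call rested on KCl culture 5, since without it the value was 0.14 and not called. RNAseq coverage was also uneven, with 388, 425 and 429 untreated reads on the 3′UTR and only 21, 22 and 16 on the longer CDS, and on CDS reads alone the log2 fold change was 0.09. CDS footprints were 12.8, 8.13 and 21.5 CPM in untreated and 16.9 and 23.2 CPM in KCl cultures (0.77, SE 0.31), which overlapped and were not called. Footprints on the 5′UTR were 884, 643 and 398 CPM against 618 and 711 CPM, a log2 fold change of 0.01 (SE 0.26). TE, at 0.168 and 0.149 with KCl, lay inside the untreated range. The second Atf5 transcript, which shares CDS reads with the first, gave 0.50 in RNAseq, 0.77 in CDS RF and 0.00 in 5′UTR RF.

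Ddit3 encodes CHOP, a transcription factor of the later stress response. Its RNA was not called, at 19.1, 26.5 and 17.2 CPM in untreated and 14.8 and 23.5 CPM in KCl cultures (log2 fold change −0.12, SE 0.28). CDS footprints were 1.21, 2.64 and 4.68 CPM in untreated and 16.0 and 11.1 CPM in KCl cultures, from 7, 13 and 5 and from 18 and 24 reads. Every KCl value lay above every untreated value, with a log2 fold change of 2.56 (SE 0.44). TE was 0.106, 0.165 and 0.436 in untreated and 1.77 and 0.766 in KCl cultures, for a log2 fold change of 2.70 (SE 0.51), or 6.49-fold. This transcript passed the RPKM minimum in 0 untreated and 2 KCl cultures, so it entered the measured set only through the group in which it was high. Footprints on its 5′UTR showed no such difference. They were not called, at 159, 238 and 166 CPM in untreated and 185 and 205 CPM in KCl cultures, for a log2 fold change of 0.05 (SE 0.34).

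The division of Ddit3 footprints between 5′UTR and CDS shifted toward the CDS. The ratio of 5′UTR to CDS footprints was 8.29, 4.85 and 3.00 in untreated and 0.833 and 1.42 in KCl cultures. As a share of both regions, the 5′UTR held 89.2% (exact 95% interval 79.1 to 95.6), 82.9% (72.5 to 90.6) and 75% (50.9 to 91.3) of footprints in untreated cultures 1, 2 and 3. In KCl cultures 4 and 5 it held 45.5% (28.1 to 63.7) and 58.6% (44.9 to 71.4), by the Clopper-Pearson method. Both KCl shares lay below all 3 untreated shares, though the interval of culture 3, from 20 footprints, overlaps both. The log2 fold change of the ratio was −2.46 (SE 0.55, or −2.21 with equal scaling of both regions), and Ddit3 was the 1 gene of the 3 in that fit that was called, lower. Over the 5272 transcripts tested, 0.36% were called higher and 0.247% lower, shares against which Ddit3 cannot be set, since it entered through its KCl cultures. This call was lost in 8 of 13 alternative settings, including any one that left out untreated culture 1, untreated culture 3, or either KCl culture, while its value stayed between −2.85 and −2.14. The intervals cover counting error within a library and not the spread between cultures. The footprints carry no molecular identifiers, so copies of 1 molecule may count as separate reads and the intervals may be too narrow.

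In Atf4 the same ratio was 2.90, 3.24 and 3.00 in untreated and 2.50 and 2.59 in KCl cultures. The KCl values lay just below the untreated ones. The fitted log2 fold change, with each region scaled on its own, was −0.51 (SE 0.29) and was not called, and with equal scaling of both regions it was −0.26. The 5′UTR held 74.4%, 76.4% and 75% of Atf4 footprints in untreated and 71.4% and 72.2% in KCl cultures. In Atf5 the ratio was 4.35, 4.25 and 1.57 against 2.63 and 2.36 (−0.73, SE 0.44, or −0.44 with equal scaling), and untreated culture 3 alone lay below the KCl cultures. On the 5′UTR alone, Atf4 was the 1 gene of the 3 called higher, against 4.78% higher and 2.62% lower of 5272 transcripts. Whether the ratio changed more in Ddit3 than in Atf4 was not tested.

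**Figure D4:**
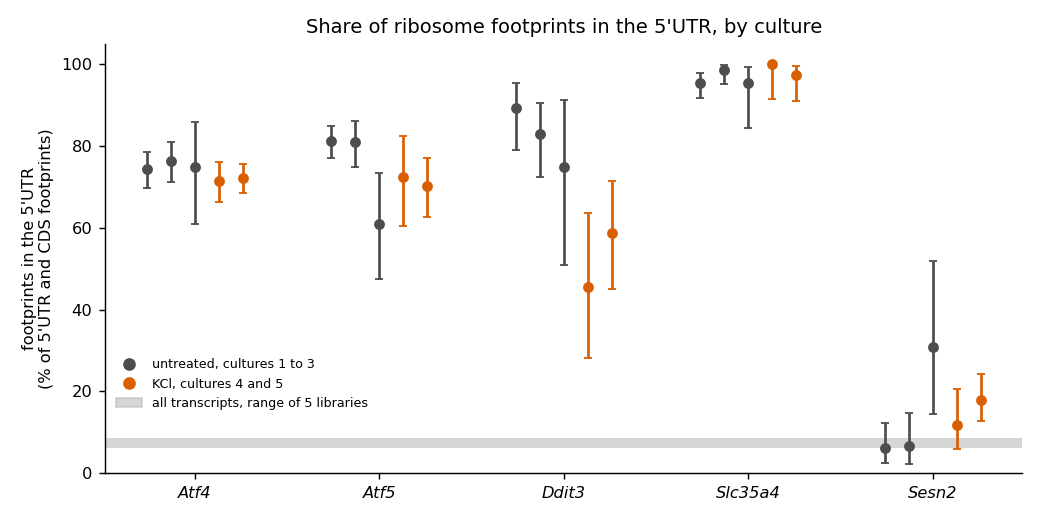
Share of footprints on the 5′UTR, as a percentage of 5′UTR and CDS footprints (y axis), for each culture of 5 genes. Points are cultures (gray, untreated 1 to 3; orange, KCl 4 and 5), bars are exact 95% binomial intervals, and the gray band is the range over all transcripts, 6.08% to 8.65%. Ddit3 falls from 75% or more to 58.6% or less, Atf4 and Slc35a4 stay above 70% in every culture, and Sesn2 is mostly below 20%.

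PPP1R15A and PPP1R15B are the subunits that bring protein phosphatase 1 to eIF2 and reverse its phosphorylation, PPP1R15B being the constitutive one. Ppp1r15b RNAseq was 106, 107 and 100.2 CPM in untreated and 371 and 350 CPM in KCl cultures (log2 fold change 1.79, SE 0.14). Its CDS footprints rose less, from 81.6, 80.0 and 74.9 CPM to 150.3 and 130.4 CPM (0.80, SE 0.13). TE therefore went from 1.95, 1.90 and 1.82 to 1.01 and 0.915, all KCl values below all untreated values, with a log2 fold change of −0.97 (SE 0.21). On RNAseq reads of the CDS alone the fall in TE was −0.61 and was not called, and without KCl culture 5 it was −0.90 and not called. Most Ppp1r15b RNAseq reads lay on the 3′UTR, 170 to 206 of 245 to 273 in untreated cultures.

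Ifrd1, a transcriptional coregulator whose uORF governs both translation and stability of its mRNA, showed the same pattern. RNAseq was 84.1, 81.6 and 95.7 CPM in untreated and 476 and 387 CPM in KCl cultures (2.31, SE 0.14). CDS footprints were 42.9, 38.8 and 36.5 CPM against 106 and 98.8 CPM (1.34, SE 0.15). TE was 1.21, 1.13 and 0.871 in untreated and 0.518 and 0.588 in KCl cultures, for a log2 fold change of −0.96 (SE 0.22). Without KCl culture 4 or without KCl culture 5 this value was −0.85 and −1.06 and was not called. Footprints of Ppp1r15b and Ifrd1 thus rose with KCl, but by less than their RNA.

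**Figure D5:**
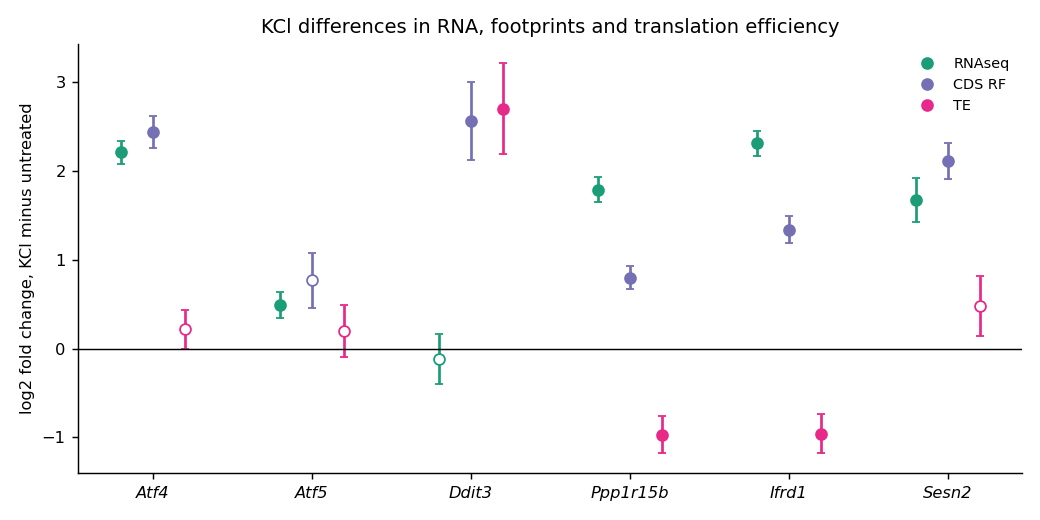
Log2 fold changes, KCl minus untreated (y axis), in RNAseq, CDS footprints and TE for 6 genes, from edgeR with bars of 1 approximate SE. Filled points were called at an adjusted p under 0.05 and open points were not, and Sesn2 comes from the fit without the RPKM minimum. RNA and footprints are both high for Atf4 and Sesn2, footprints alone for Ddit3, and RNA exceeds footprints for Ppp1r15b and Ifrd1, whose TE is negative.

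The genes below the RPKM minimum were read from the fit without it, which called 10.4% of 21950 transcripts higher in RNAseq, 13.4% of 20864 higher in CDS RF and 1.57% of 16550 higher in 5′UTR RF. Sesn2 encodes an antioxidant protein that restrains mTORC1 signaling. It passed the minimum in 1 KCl culture. RNAseq was 16.4, 16.4 and 12.7 CPM in untreated and 51.0 and 41.8 CPM in KCl cultures (1.67, SE 0.25), and CDS footprints were 18.7, 14.4 and 16.9 CPM against 66.7 and 70.5 CPM (2.11, SE 0.20). Both were called higher without overlap of the groups. TE was 2.93 and 3.74 with KCl, slightly above the untreated range, and its log2 fold change of 0.48 (SE 0.34) was not called. Footprints on the Sesn2 5′UTR numbered 7, 5 and 8 in untreated and 10 and 33 in KCl cultures and were called higher (2.44, SE 0.50).

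Slc35a4, of the nucleotide sugar transporter family, had footprints almost only on its 5′UTR in both conditions. RNAseq was 93.0, 119 and 89.2 CPM in untreated and 75.2 and 106 CPM in KCl cultures (−0.08, SE 0.17). Footprints on the 5′UTR were 576, 560 and 465 CPM against 519 and 452 CPM (−0.17, SE 0.28), and neither value was called. The CDS held 10, 2 and 2 footprints in untreated and 0 and 2 in KCl cultures, so a difference was not detectable at this depth. The 5′UTR share was 95.5%, 98.7% and 95.5% in untreated and 100% (exact 95% interval 91.6 to 100) and 97.4% in KCl cultures.

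Trib3, a pseudokinase that inhibits AKT and ATF4, and Chac1, an enzyme that degrades glutathione, are targets of ATF4 and CHOP and were near the limit of detection. Trib3 had 10, 10 and 12 RNAseq reads in untreated and 3 and 4 in KCl cultures, so KCl lay below untreated (−1.55, SE 0.75), and its CDS footprints were 15, 11 and 0 against 0 and 2. Chac1 had 17, 19 and 22 RNAseq reads against 16 and 27 (0.17, SE 0.41). Its CDS footprints were 21, 17 and 5 in untreated and 2 and 2 in KCl cultures, and in CPM these gave 3.64, 3.45 and 4.68 against 1.78 and 0.928 (−1.50, SE 0.76). None of these differences was called.

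In promoters from 250 bases before to 50 bases after the annotated start (RefSeq, GRCm38.p6), the composite element of C/EBP and ATF factors, searched as TGATGNAA on both strands, was found in 3.97% of 32851 promoters. Of the 10 genes, 8 had a promoter in the table, all but Slc35a4 and Ppp1r15b. The element was found in those of Trib3 and Chac1. The CREB site TGACGTCA was found in 1.79% of promoters and among these genes in Ppp1r15a alone. Neither was found in the promoters of Atf4, Atf5, Ddit3, Ifrd1 and Sesn2, which says only that these letters are not in that window.

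The wider pathway was described from 5 lists of genes by their 1 transcript with the most reads. Of 19 kinases, subunits and regulators of eIF2 and eIF2B, 5 were measured (Eif2ak1, Eif2b1, Eif2b2, Impact and Dnajc3). In edgeR 0 of the 5 were called in RNAseq, CDS RF, TE, 5′UTR RF or the ratio. Of all transcripts 17.9% were called higher and 15.1% lower in RNAseq, and 20.9% and 20.1% in CDS RF. The shares were 1.53% and 4.26% in TE, 4.78% and 2.62% in 5′UTR RF, and 0.36% and 0.247% in the ratio. With so few calls in those measures, a count of 0 says little about these genes. At an unadjusted p under 0.05 there was 1 in CDS RF and 0 in the other 4, and DESeq2 called 0 in each. With library totals 1 was called lower in CDS RF. Their median log2 fold change was −0.01 in RNAseq and 0.08 in CDS RF. Eif2ak1, the heme-regulated eIF2 kinase, had 66.3 ± 6.54 CPM (SD, n = 3) in RNAseq of untreated cultures and 58.2 ± 0.864 CPM (SD, n = 2) with KCl. It was not called (−0.19, SE 0.18) and is named outside the rule for list genes. Eif2b1 also lay lower with KCl without overlap, Impact lay higher (57.8 CPM untreated, 73.0 CPM with KCl), and Eif2b2 and Dnajc3 overlapped. No level of eIF2 phosphorylation was measured in these libraries.

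Of 8 partners with which ATF4 forms bZIP dimers, 5 were measured. In RNAseq 4 of the 5 were called higher, beside 17.9% of all transcripts, and in CDS RF 5 of the 5, beside 20.9%. Cebpb, at 10.6 CPM in RNAseq of untreated and 39.1 CPM of KCl cultures, and Creb5, at 19.9 and 68.4 CPM, were low when untreated. Like Ddit3, they may have passed the RPKM minimum only through the KCl cultures, which was not checked. If so, their calls cannot be set against these shares, and the medians of the list include them. In RNAseq these were Cebpb (1.88, SE 0.26, adjusted p 2.3e-07), Atf3 (1.79, SE 0.16, adjusted p 1.5e-11), Creb5 (1.78, SE 0.22, adjusted p 1.6e-08) and Jun (0.61, SE 0.14, adjusted p 0.00078). In TE, Jun was called higher (0.73, SE 0.18, adjusted p 0.003), with 1.85 ± 0.424 (SD, n = 3) when untreated and 3.02 ± 0.0529 (SD, n = 2) with KCl, a call lost without KCl culture 4 and without KCl culture 5. On the 5′UTR, Atf3 footprints were called higher (2.19, SE 0.37, adjusted p 0.00011), and without KCl culture 5 they were not. The median log2 fold change of the list was 1.78 in RNAseq and 1.63 in CDS RF. On RNAseq reads of the CDS alone 3 of the list were called higher in RNAseq, and with library totals 4 were in CDS RF.

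Of 32 established targets of ATF4 and CHOP, 17 were measured. In RNAseq 6 of the 17 were called higher and 3 lower, beside 17.9% and 15.1% of all transcripts, and in CDS RF 7 and 4, beside 20.9% and 20.1%. The higher counts include Cebpb, and in CDS RF also Mthfd2. Both had low untreated RNAseq levels and may have passed the RPKM minimum only through the KCl cultures, which was not checked. If so, their calls cannot be set against these shares. The RNAseq counts were 5 and 0 on reads of the CDS alone, 5 and 1 without KCl culture 4, and 4 and 4 without KCl culture 5. Those in CDS RF were 6 and 2 without KCl culture 4 and 5 and 2 without KCl culture 5. In TE 0 were called by edgeR and by DESeq2 (2 at an unadjusted p under 0.05), beside 1.53% higher and 4.26% lower of all transcripts. The median log2 fold change was 0.20 in RNAseq and 0.23 in CDS RF. The largest RNAseq differences beside Cebpb and Atf3, which the list shares with the bZIP partners, were Herpud1, a factor of ER-associated degradation, at 1.53 (SE 0.20, adjusted p 1e-07), and Ddit4, an inhibitor of mTORC1, at −1.08 (SE 0.20, adjusted p 4.9e-05). Ddit4 had 85.2 ± 23.6 CPM (SD, n = 3) when untreated and 40.2 ± 1.88 CPM (SD, n = 2) with KCl. The other 2 called lower in RNAseq, named after their values were seen, were the alanyl-tRNA synthetase Aars (−0.50, SE 0.14) and the amino acid transporter Slc7a5 (−0.41, SE 0.14). In CDS RF, Mthfd2, an enzyme of mitochondrial folate metabolism, was higher (0.84, SE 0.23, adjusted p 0.0051). Its RNAseq level was low, at 19.5 CPM in untreated and 28.7 CPM in KCl cultures, so the limit above applies to it. Asns, the asparagine synthetase often used as a readout of ATF4, had 49.9 ± 8.01 CPM (SD, n = 3) in RNAseq of untreated cultures and 61.1 ± 3.83 CPM (SD, n = 2) with KCl and was not called (0.29, SE 0.19, adjusted p 0.24). It was singled out after its values were seen.

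Of 13 genes of the XBP1 and ATF6 branches of the unfolded protein response, 6 were measured. In RNAseq 2 of the 6 were called higher, beside 17.9% of all transcripts, the chaperone Calr (0.36, SE 0.13, adjusted p 0.03) and Atf6 (0.46, SE 0.17, adjusted p 0.031, with overlapping groups and named after its values were seen). This count was 1 in DESeq2 and without culture 1, 3 or 5, and 0 without culture 2, without culture 4, on CDS reads alone and with library totals, and 1 was called lower with library totals and without culture 1. In CDS RF 2 of the 6 were called higher, beside 20.9% of all transcripts, Atf6 (0.74, SE 0.14, adjusted p 0.00011) and the disulfide isomerase Pdia6 (0.22, SE 0.09, adjusted p 0.041), and 1 was called without culture 1, 2, 4 or 5. Of 8 other mRNAs described as uORF-regulated under eIF2 phosphorylation, 3 were measured. The arginine transporter Slc7a1 was higher in RNAseq (0.70, SE 0.15, adjusted p 0.00028) and the synthetase Eprs was lower (−0.60, SE 0.16, adjusted p 0.0036). These calls stand beside 17.9% higher and 15.1% lower of all transcripts. In CDS RF Slc7a1 was also called higher (0.56, SE 0.13, adjusted p 0.001) and Eprs lower (−0.38, SE 0.09, adjusted p 0.0012), beside 20.9% and 20.1%. Not all of these calls were kept when a single KCl culture was left out. In TE 0 were called by either tool (0 at an unadjusted p under 0.05), beside 1.53% and 4.26%.

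Over the 10 libraries of both assays, centered on the untreated mean of each, the genes nearest to Atf4 among 4364 were Thbs1 (Euclidean distance 0.667 in log2 CPM), Ppargc1a (0.699) and Sik1 (0.729), against a median of 4.82. Their log2 fold changes were 2.20, 1.93 and 2.11 in RNAseq and 2.29, 2.61 and 2.62 in CDS RF. These had to lie near those of Atf4, since the same libraries set the distance, so the likeness is no separate result. Ddit3 had no neighbor as close. It had only 5 to 24 CDS footprints a library, and counting error at that depth adds to its distance from any gene. How much of the distance this makes up was not tested. The genes nearest to Ddit3 were Azin1 (2.03), Fth1 (2.16) and Fosl1 (2.27), against a median of 3.79. They had RNAseq log2 fold changes of 0.03, −0.09 and 1.20 and CDS RF log2 fold changes of 1.55, 1.51 and 1.99.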

How the data were processed

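The authors used Trimmomatic 0.32 to trim the reads and STAR 2.3.1z8 to take out rRNA, aligned the rest with Bowtie2 2.2.2 to mm10 transcripts whose degenerate sequences had been removed, retained multi-mapped reads, and deposited raw counts for each region of a transcript from bedtools 2.20.1, without normalization. Regions carry letters, read here as 5′UTR, CDS, an unnamed region and 3′UTR from how their share of reads follows annotated lengths. Of 22534 transcripts, 22177 (98.4%) matched GENCODE in GRCm38, a later annotation than the authors used. A read on a stretch that several isoforms share counts for each, so the CDS counts of both Atf5 transcripts are identical. The RNAseq kit does not mark strand, so reads of genes that overlap a member on the opposite strand (up to 82 nt in Atf5, 68 nt in Ddit3, 321 nt in Ifrd1 and 640 nt in Ppp1r15b) cannot be told apart. Footprints near start and stop codons could not be left out from counts per region.

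RNAseq counts over all regions, CDS footprint counts and 5′UTR footprint counts (at least 10 over the 5 RF libraries) were tested with edgeR 4.0.16 (R 4.3.3), by glmQLFit, robust, with TMM and Benjamini-Hochberg adjustment over all transcripts in the fit. TE was the assay by treatment interaction in a model blocked on culture, since both libraries come from 1 culture. The 5′UTR to CDS ratio was the interaction of region and treatment with library as a block. SE is the log2 fold change divided by the square root of the F statistic. RPKM used region lengths and library totals, CPM the TMM library sizes. Intervals are Clopper-Pearson (scipy 1.17.1). DESeq2 1.42.0, other filters and scalings, and leaving out each culture were the alternatives. The fits were tested on simulated data. All members were named by every listed transcript and described by their measured transcript with the most RNAseq reads. Genes of a list were named where called, with non-overlapping groups, up to 4 a measure by absolute fold change, and the 3 genes nearest to Atf4 and Ddit3 by distance. The members and lists were chosen with earlier results of these data known.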

Additional observations from a re-analysis of the deposited data

How the results depend on the processing

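In RNAseq 2393 transcripts were called, with 4232 under edgeR's own filter, 4166 without a filter, 1439 with 1 transcript per gene, 1528 on CDS reads only (added after seeing the data) and 1634 to 2634 when single cultures were left out. For CDS RF the 2974 calls became 5330, 5412 and 1738 under the first 3 of these, and 1698 to 3233 with single cultures left out. The 420 TE calls became 188 in DESeq2, 264 with 1 transcript per gene, 265 on CDS reads only, 419 with no replicate block, and 70 to 546 with single cultures left out. The 390 calls in 5′UTR RF became 155 in DESeq2, 193 with library totals, and 49 to 494. The 32 ratio calls became 20 in DESeq2, 4 with library totals, 4 with equal scaling of both regions, 54 under edgeR's filter, 52 without a filter, 96 with no replicate block, and 0 to 61. Among the fits that left out single cultures, the lowest count came without KCl culture 5 in CDS RF, TE and 5′UTR RF, without KCl culture 4 in RNAseq, and without either in the ratio, which also gave 2 without untreated culture 3, 15 without untreated culture 1 and 61 without untreated culture 2. TE gave 142 and 5′UTR RF 89 without KCl culture 4, and 5′UTR RF 251 without untreated culture 1. Where 1 KCl culture was left out, the remaining one was assumed to vary like the untreated ones.

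Ddit3 TE lay between 2.20 and 3.38 in 14 alternatives and was called in the 13 that gave an adjusted p, DESeq2 giving none. The Ddit3 ratio was called in 5 of 13, Ppp1r15b and Ifrd1 TE in 12 of 14 each, and Atf5 RNAseq in 10 of 12, while Atf5 CDS RF, not called above, was called in 3 of 11. Atf4 kept its calls in RNAseq (2.13 to 2.27), CDS RF (2.33 to 2.58) and 5′UTR RF (1.79 to 2.15) in every alternative. The no replicate block fit of TE changed no call of a member. Depth limits the CDS values of Ddit3, Slc35a4, Trib3 and Chac1, which rest on 0 to 24 footprints a library. Read mapping to shared isoforms and the stretches where uORF and CDS overlap could not be separated.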
